A study of Mus musculus with 3 samples.

Results

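The clustered replication-dependent histone genes of the mouse were examined in the chromatin-associated RNA of macrophages. They were the genes whose symbols begin with Hist1h, Hist2h, Hist3h or Hist4h and which have at least 1 transcript annotated as protein coding. Of 70 such symbols, 67 qualified, out of 21901 protein-coding genes and 55536 annotated genes in all. The 3 left out, Hist1h2aj, Hist1h2al and Hist3h2bb-ps, have pseudogene transcripts only, and none reached more than 1 expected count in any library. The 67 genes encode the linker histone H1 (6 genes) and the core histones H2A (18 genes), H2B (18 genes), H3 (12 genes) and H4 (13 genes). Cluster Hist1 on chromosome 13 holds 54 of them, Hist2 on chromosome 3 holds 10, Hist3 on chromosome 11 holds 2 and Hist4 on chromosome 6 holds 1.

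All 3 libraries belong to 1 group of C57BL/6J bone-marrow-derived macrophages. Per the labels, the cells were given 100 ng/ml of Lipid A, the part of bacterial lipopolysaccharide that Toll-like receptor 4 recognises, over 12 hours. They then spent 12 hours without it and met the same dose again 50 minutes before harvest. Total RNA-seq after ribosomal depletion was made from chromatin-fraction RNA, starting from 1 µg in replicate 1, 250 ng in replicate 2 and 500 ng in replicate 3. Each library carries its own biological replicate number in the labels, which name 1 donor for all and no separate cultures, so SDs measure the spread between these samples, which may be technical. Without a second condition, every value is a level, and no response to Lipid A was measured. Depth was 13722860, 19556984 and 19298034 expected counts over annotated genes in replicates 1, 2 and 3. The 6 macrophage markers Adgre1, Csf1r, Itgam, Cd68, Lyz2 and Msr1 were all detected, summing to between 984 and 1211 TPM (an abundance corrected for transcript length, on a scale with the same total in each library). Sums over 6 neutrophil, 5 B cell, 4 T cell and 4 erythroid markers were at most 0.51, 0.16, 1.59 and 0 TPM. Among them Elane, Pax5, Cd79b, Cd3e, Cd3g and Hbb-bs were at 0 counts. Cd247, in the T cell list, had 6, 26.48 and 13 counts (0.43, 1.31 and 1.05 TPM), and Lck had 2, 1 and 2 counts.

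These genes supply most of the histone protein that packs newly replicated DNA, and dividing cells transcribe them mainly during S phase. Their mRNAs are the animal mRNAs that end without a poly(A) tail. The 3′ end is made by a cut just after a conserved stem-loop, which is bound by the stem-loop binding protein Slbp and cut with the help of the U7 small nuclear ribonucleoprotein, and the same stem-loop later directs export, translation and decay of the mRNA. Most genes of the replication-independent histone variants, such as H3f3b, make polyadenylated mRNAs with introns and are expressed outside S phase as well. Macrophage progenitors divide in culture and largely stop as they mature, and clustered histone RNA is a common readout of S phase. RNA that lacks a poly(A) tail is kept by ribosomal depletion and lost by poly(A) selection, so the libraries could hold it.

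The stem-loop is the sequence that unites the family, and it is printed here because the annotated models are described by it below. The histone stem-loop, 6 stem pairs around a loop of 4 bases, was searched on the sense strand of all annotated protein-coding transcripts. It was found in 44 of the 67 histone genes (65.7%) and in 20 of 21834 other protein-coding genes (0.0916%). It came in 6 forms, given 5′ to 3′ as DNA with the stem arms in capitals and the loop in lower case:
Hist3h2a, Hist2h2aa2 and Hist1h2bg (26 genes of H1, H2A, H2B and H3): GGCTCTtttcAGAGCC
Hist1h2bb and Hist1h3c (6 genes of H1, H2B and H3): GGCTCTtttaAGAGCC
Hist2h2ac (1 gene of H2A): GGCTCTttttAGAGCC
Hist1h4m, Hist1h4n and Hist1h4c (7 genes of H4): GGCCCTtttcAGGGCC
Hist1h4i and Hist2h4 (2 genes of H4): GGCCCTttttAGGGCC
Hist1h4b and Hist1h4j (2 genes of H4): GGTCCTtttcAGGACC
Every H4 stem-loop differed in its stem from every stem-loop of the other types. No match says only that the 16 letters are not in the annotated transcript, and some of the 23 models without it, such as that of Hist1h4k, stop at the end of the coding sequence.

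Promoters were read from RefSeq (GRCm38.p6, 250 bases before to 50 bases after the start) for the 62 histone genes that could be matched, and were searched on both strands for motifs known from histone promoters. The octamer ATTTGCAT, the binding sequence of Oct factors, stood in 7 of 18 H2A and 6 of 16 H2B promoters and in none of 28 promoters of H1, H3 and H4, against 1.74% of 32851 RefSeq promoters. Neighbouring H2A and H2B genes that point in opposite directions can have overlapping windows. A motif in the overlap was counted for both genes, as the octamer of Hist1h2ae and Hist1h2bg was, so these promoters are not all separate sites. The CCAAT motif stood in every H1, H2A, H2B and H3 promoter matched but in only 3 of 12 H4 promoters, against 37.4% of all promoters. TATAAA stood in 35 of 62, against 13.6% of all promoters. No motif contains another. The promoter of Hist1h2bg is printed because this H2B gene belongs to the single facing pair with both genes detected at alignment-based levels (below). Its partner, the H2A gene Hist1h2ae, leaves this region in the opposite direction. Capitals mark the octamer, the TATA box and the CCAAT box, which occurs here on both strands, at chr13:23571150-23571449, plus strand:
Hist1h2bg promoter: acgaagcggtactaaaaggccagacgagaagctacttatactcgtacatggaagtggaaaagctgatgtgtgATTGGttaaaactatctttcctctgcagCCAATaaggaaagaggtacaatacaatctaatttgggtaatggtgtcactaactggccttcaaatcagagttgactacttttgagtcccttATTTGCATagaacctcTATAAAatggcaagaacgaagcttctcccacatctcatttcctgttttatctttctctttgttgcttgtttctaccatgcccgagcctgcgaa

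Chromatin RNA of these macrophages held clustered histone transcripts at low levels, and H2A and H4 genes made up most of them. Detection meant 1 TPM or more in each of the 3 libraries. By that rule 11 of 67 histone genes (16.4%) were detected, against 39.4% of the 21901 protein-coding genes. The detected genes were 4 of H2A, 2 of H2B and 5 of H4, and none of the 6 H1 and 12 H3 genes was among them. All 67 genes together summed to 56.5, 75.9 and 62.0 TPM in replicates 1, 2 and 3 (64.8 ± 10, SD, n = 3). The whole family thus held less RNA than the single variant gene H3f3b at 155 ± 38.1 TPM. The median of the 67 mean levels was 0.383 TPM, beside a median of 0.373 TPM over protein-coding genes.

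Counts behind these levels were few. The 67 genes drew 550.5 expected counts in replicate 1 (95% Poisson interval 505 to 598), 701 in replicate 2 (650.1 to 755) and 522 in replicate 3 (478 to 569), intervals that cover counting error only. That was between 0.00271% and 0.00401% of the counts of a library. In every library 64 of the 67 genes stayed under 30 expected counts. Because many models are short, 3 counts, used as the limit of counting error at a count of 0, were worth between 0.0232 and 2.12 TPM depending on the gene and library. For 16 genes 3 counts reached at least 1 TPM in some library, so a single gene near 1 TPM can rest on a few reads. That limit leaves out how reads were divided between copies: Hist1h2br, at 0 counts in replicate 2, had a deposited credible interval that ran up to 1.58 TPM, against 0.166 TPM for 3 counts. The bulk samples cannot tell fewer cells with histone RNA from less histone RNA per cell.

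**Figure D1:**
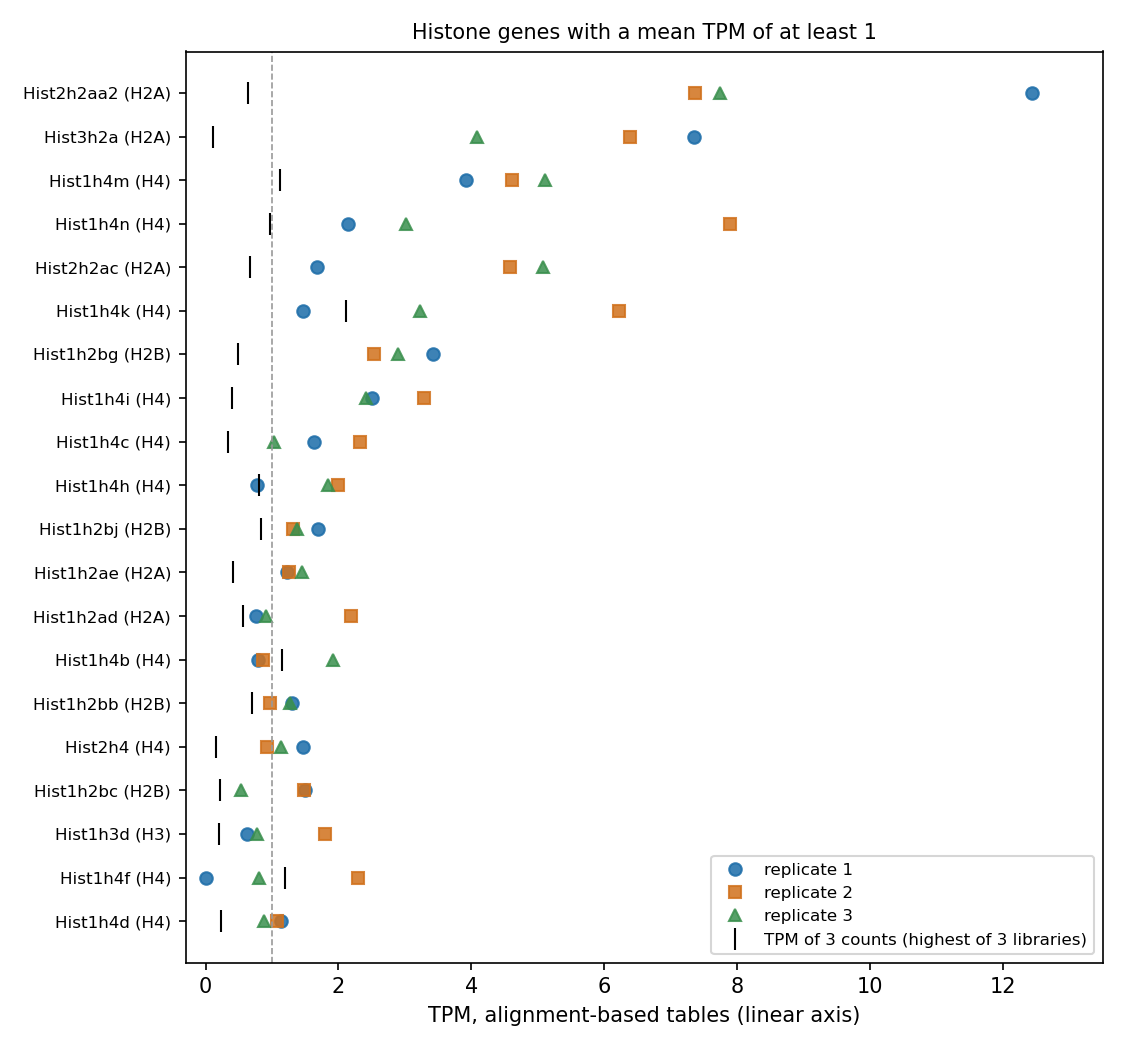
TPM of the 20 histone genes whose mean reached 1 TPM, with a symbol for each of the 3 libraries on a linear axis, and a tick at the TPM that 3 counts are worth. Hist2h2aa2 stands highest in replicate 1 at 12.44 TPM, and Hist1h4f is at 0 in replicate 1. The dashed line is the detection threshold of 1 TPM.

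H2A genes had the highest mean sum, with 26.7, 25.6 and 24.1 TPM in replicates 1, 2 and 3, and the spread between libraries was small (25.5 ± 1.30). In replicate 2 the H4 sum was higher, and without replicate 1 the mean sums were 24.8 TPM for H2A and 27.7 TPM for H4, so the order of these types was not fixed. H2A pairs with H2B in the dimers on either face of the nucleosome. Hist2h2aa2 (chromosome 3, 96239749 to 96240276, minus strand, mm10) had the highest mean level of all 67 genes, with 12.44, 7.37 and 7.75 TPM, although Hist1h4n was higher in replicate 2. Replicate 1 stood above the other 2 libraries, which lay close together. Hist3h2a (chromosome 11, 58954685 to 58956830, plus strand) followed with 7.35, 6.39 and 4.09 TPM and had by far the most counts, 197, 218 and 129, or 30.5% ± 5.56 of all counts on the family. Hist2h2ac had 1.68, 4.59 and 5.08 TPM, low in replicate 1 and alike in the other 2. Hist1h2ae, at 1.22, 1.26 and 1.45 TPM, had the smallest spread of the 11 detected genes (coefficient of variation 9.38%). Hist1h2ad had 0.76, 2.19 and 0.91 TPM and was above 1 TPM in replicate 2 alone. The other 13 H2A genes had means under 1 TPM.

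H4 genes had the second mean sum, with 16, 32.8 and 22.6 TPM (23.8 ± 8.48), replicate 2 highest. H4 forms the centre of the nucleosome with H3, and the 13 H4 genes encode 1 and the same protein of 103 residues. Their RNA was spread over more genes than that of any other type, as 10 of 13 reached a mean TPM of at least 1. Hist1h4m had 3.92, 4.61 and 5.11 TPM, and its near-copy Hist1h4n had 2.14, 7.90 and 3.02 TPM, the widest spread among the detected genes (coefficient of variation 71.3%). Hist1h4k had 1.47, 6.23 and 3.23 TPM, but its model of 312 bases drew only 2.89, 9.15 and 4.58 counts, and in replicate 1 the 3-count level of 1.52 TPM lay above its value. Hist1h4i had 2.50, 3.29 and 2.42 TPM and Hist1h4c had 1.64, 2.32 and 1.03 TPM. Both were above 1 TPM in every library, on 18.94, 27.89 and 19.22 counts for Hist1h4i.

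Of the H4 genes with a mean above 1 TPM that missed detection in some library, Hist1h4h had 0.77, 1.99 and 1.85 TPM. Hist1h4b had 0.79, 0.87 and 1.92 TPM, and Hist1h4d had 1.14, 1.07 and 0.88 TPM. Hist1h4f had 0, 2.29 and 0.80 TPM on 0, 6 and 2 counts, which makes it the least certain of the 20 named genes. The gene Hist2h4, the H4 gene of cluster Hist2, had 1.46, 0.93 and 1.13 TPM on 29, 23 and 26 counts, so its level rests on more reads than that of Hist1h4m. Replicate 2 was the library made from the least RNA, 250 ng, and the part of the input in its higher H4 sum was not tested.

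H2B genes summed to 9.72, 10.3 and 9.76 TPM (9.93 ± 0.335), the closest agreement between libraries of the 5 types. Hist1h2bg (chromosome 13, 23571396 to 23572013, plus strand) led them with 3.43, 2.54 and 2.90 TPM on 20.9, 16.61 and 17.79 counts. Hist1h2bj had 1.70, 1.31 and 1.38 TPM on 5 to 6.79 counts. Those were the 2 detected H2B genes. Hist1h2bb had 1.30, 0.97 and 1.27 TPM, and Hist1h2bc had 1.49, 1.48 and 0.54 TPM, each under 1 TPM in 1 library. The remaining 14 H2B genes had means under 1 TPM, although they include models up to 2620 bases long.

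H3 and H1 genes were lowest. The 12 H3 genes, whose product carries many of the best studied histone tail marks, summed to 2.65, 5.05 and 1.85 TPM (3.18 ± 1.67). Hist1h3d alone reached a mean of 1 TPM, with 0.63, 1.80 and 0.78 TPM, replicate 2 again highest. H3 drew far less TPM than H4, its partner in the nucleosome, in each library. It stood above H1 in replicates 1 and 2 and below it in replicate 3. The 6 linker histone genes summed to 1.39, 2.15 and 3.70 TPM (2.41 ± 1.18). Among them Hist1h1c had the highest mean, 0.723 ± 0.362 TPM, followed by Hist1h1e at 0.663 ± 0.105 TPM. Hist1h1t, the linker histone gene of male germ cells, had 1, 0 and 3 counts.

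At the other end, 8 of 67 genes had 0 expected counts in every library, against 31.7% of protein-coding genes. They were Hist1h2aa, Hist1h2ab, Hist1h2ah, Hist1h2ba, Hist1h2bl, Hist1h2bm, Hist1h3g and Hist2h3c1. Hist1h2aa and Hist1h2ba are the testis H2A and H2B genes, and they stand together at the end of cluster Hist1. For Hist1h2aa 3 counts would be 0.995, 1.15 and 1.20 TPM, so for the short models a level near 1 TPM was not detectable at this depth. A further 25 genes had 0 counts in some but not all libraries.

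**Figure D2:**
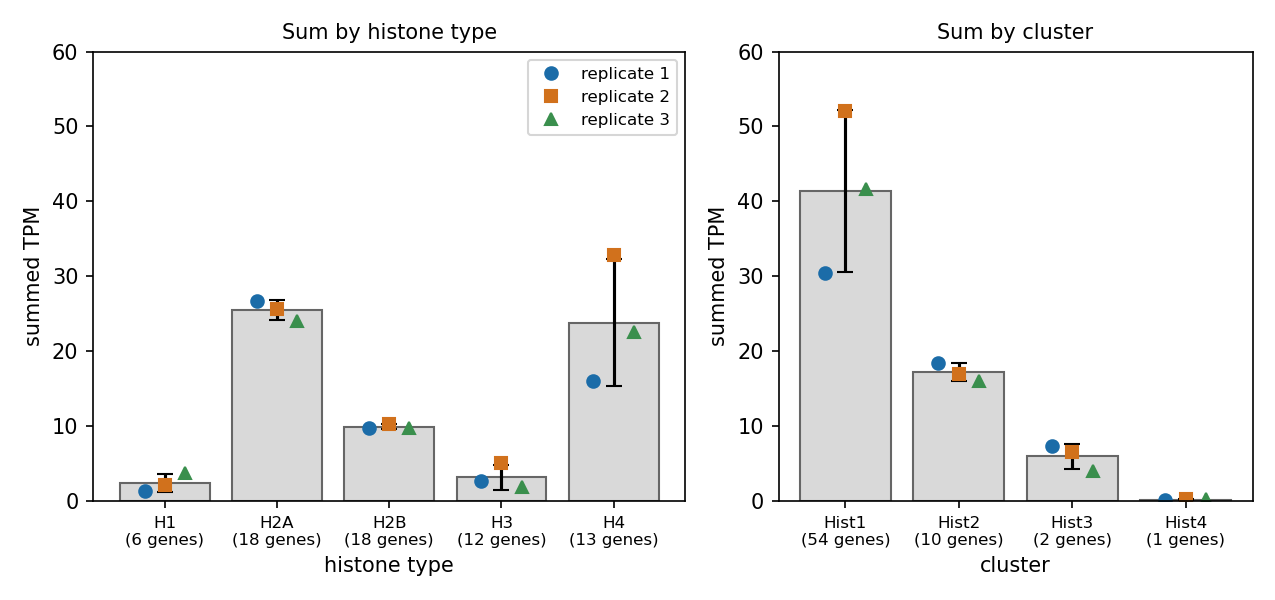
Summed TPM of the histone genes by type (left) and by cluster (right), with a symbol for each library, bars at the mean of 3 libraries and error bars of 1 SD. H2A and H4 carry most of the RNA, and the Hist1 and H4 sums have the widest SDs.

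By cluster, the 54 Hist1 genes summed to 30.5, 52.1 and 41.6 TPM, against 26.0, 23.8 and 20.4 TPM for the 13 genes of Hist2, Hist3 and Hist4 together. The Hist1 sum was higher in 3 of 3 libraries, by 0.80 ± 0.50 on the log2 scale or 1.74-fold. An exact two-sided sign-flip permutation test gave p = 0.25, the smallest that 3 libraries allow, so this design cannot pass 0.05. Detection was 8 of 54 in Hist1 and 3 of 13 in Hist2 to Hist4. Without correction for length neither side was higher throughout: the counts were 223 on Hist1 and 327 on Hist2 to Hist4 in replicate 1, 351 and 350.0 in replicate 2, and 282 and 240.2 in replicate 3. The mean log2 ratio of these counts was -0.11 (p = 1 in the same exact test), and 0.12 without replicate 1. Hist3h2a alone drew 197, 218 and 129 of the Hist2 to Hist4 counts in replicates 1, 2 and 3, so the comparison by counts leans on 1 gene. The median over genes was 0.378 TPM in Hist1 and 0.623 TPM in Hist2 to Hist4. Within Hist2, the 4 H2A genes took 14.6 ± 1.30 of 17.2 ± 1.21 TPM, while its 3 H3 genes summed to 0.747 ± 0.263 TPM.

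Along chromosome 13 the Hist1 genes lie in 4 segments separated by gaps of more than 100000 bases. The first (21715763 to 21837530, 18 genes) summed to 16.5 ± 5.93 TPM, of which Hist1h4k, Hist1h4m and Hist1h4n made up the larger part. The second (22035164 to 22043676, 5 genes) summed to 4.90 ± 0.611 TPM and held Hist1h4i and Hist1h2bj as its detected genes. The third (23531050 to 23764406, 29 genes) summed to 20.0 ± 4.43 TPM, and its 3 detected genes were Hist1h2ae, Hist1h2bg and Hist1h4c. The fourth (23933773 to 23934851) holds the testis pair Hist1h2ba and Hist1h2aa and had 0 counts. Detected genes stood beside genes at or near 0 in each of the first 3. Between the Hist1 genes lie 49 protein-coding genes that are not histone genes, 36 of them vomeronasal receptor genes of the Vmn1r family. Only Zfp322a at 6.84 ± 2.56 TPM and Hfe, the haemochromatosis gene, at 2.60 ± 1.30 TPM were detected among the 49.

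**Figure D3:**
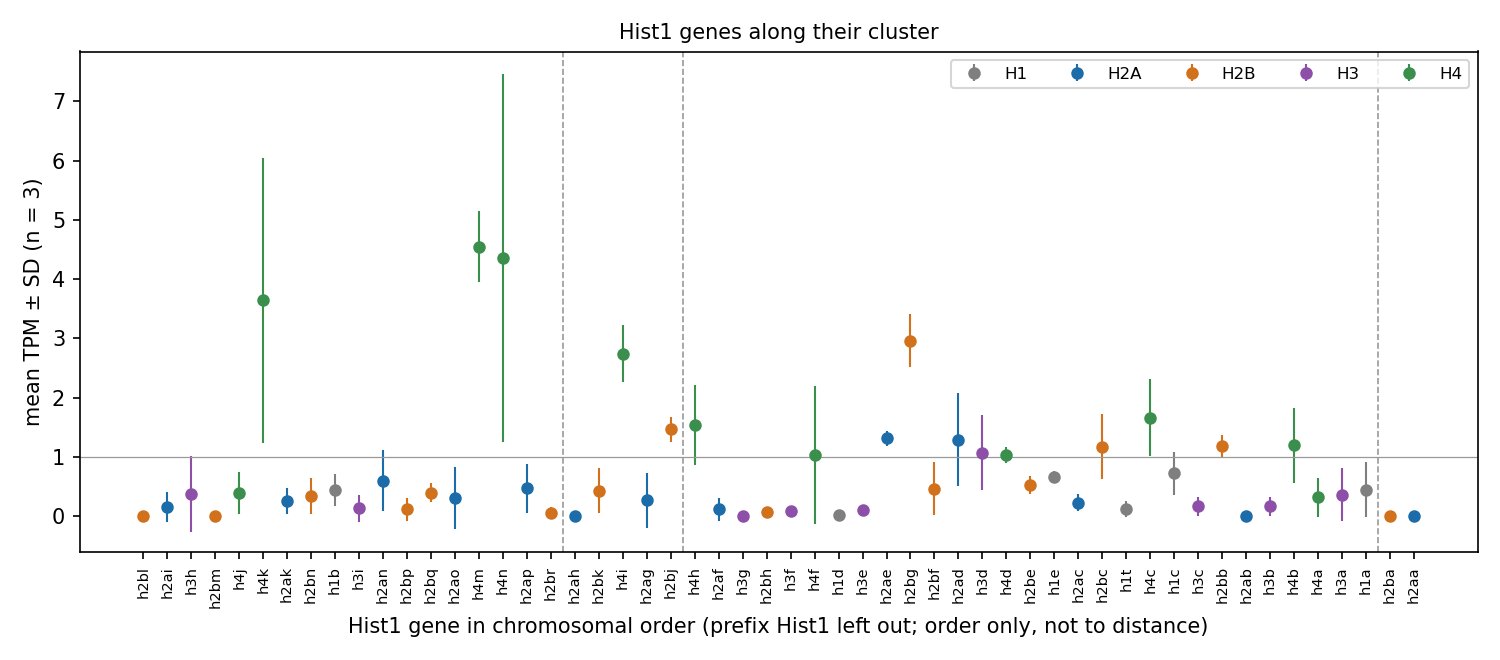
Mean TPM of the 54 Hist1 genes in chromosomal order (not to distance), coloured by histone type, with error bars of 1 SD over 3 libraries and dashed lines at the gaps between the 4 segments. H4 genes stand highest in the first 2 segments, and Hist1h2bg stands highest in the third.

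Many H2A and H2B genes leave a common region in opposite directions. There were 12 such facing pairs with starts at most 500 bases apart, all of an H2A and an H2B gene, with 175 to 305 bases between them. At alignment-based levels both genes were detected in 1 pair, 1 gene was detected in 2 pairs and neither in 9 pairs. Hist1h2ae and Hist1h2bg, the pair with both detected, had 1.31 ± 0.123 and 2.96 ± 0.448 TPM and the shortest distance of the 12, 175 bases. In the pair of Hist2h2ac and Hist2h2be, Hist2h2ac had 3.78 ± 1.84 TPM and Hist2h2be 0.380 ± 0.145 TPM. At read-based levels (below) both genes of this pair were detected. Hist2h2ac had 1.61, 4.97 and 4.63 TPM there, and Hist2h2be 1.14, 1.11 and 1.28 TPM. Hist1h2ae, at 1.16, 0.844 and 0.977 TPM read-based, was not detected there. In the pair of Hist1h2ag and Hist1h2bj, Hist1h2bj had 1.46 ± 0.208 TPM and Hist1h2ag 0.267 ± 0.462 TPM.

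Promoter motifs and levels were set side by side as a description. Of the 13 genes with the octamer, 4 were detected (Hist1h2ae, Hist1h2bg, Hist2h2ac and Hist3h2a), and 5 had 0 counts in every library. Hist1h2ae and Hist1h2bg share an octamer in their overlapping windows. Of the 49 matched genes without it, 7 were detected and 3 had 0 counts throughout. The median of the mean levels was 0.343 TPM with the octamer and 0.393 TPM without it. All 13 genes with it are H2A or H2B genes, while those without it include every matched H1, H3 and H4 gene. The comparison thus mixes the motif with the histone type. Genes without CCAAT, all of them H4 genes, had a median of 1.54 TPM (n = 9) and those with it 0.337 TPM (n = 53).

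The annotated 3′ ends differed between the genes. In 22 models the transcript ended within 100 bases after the stem-loop, from 3 bases after it in Hist1h4m to 74 in Hist1h3c. In another 22 it ran on past the stem-loop, and in 23 there was no match. Models that end at the stem-loop summed to 32.9 ± 5.36 TPM and 135 ± 18.9 counts. Models that run past it summed to 21.2 ± 2.05 TPM but 388 ± 57.6 counts, and those with no match to 10.7 ± 3.77 TPM and 68.4 ± 20.9 counts. The order of the first 2 groups therefore depends on whether the level is read per length. Detection was 5 of 22, 5 of 22 and 1 of 23 genes. Per kilobase of model, counts were 12.2 ± 1.71 where the model ended at the stem-loop and 10.6 ± 1.57 where it ran past. The second density leans on Hist3h2a, which drew 181 ± 46.5 of that group's 388 ± 57.6 counts. Its model holds 2146 of the group's 36719 bases and had 84.5 ± 21.7 counts per kilobase, so the rest of the group was less dense. The longest extensions belong to Hist1h1d, with 4884 annotated bases after the stem-loop, and Hist4h4, with 2445. Hist3h2a has 1643 bases after it and Hist2h4 has 1257, so most of the length that could draw their reads lies downstream of the end of the processed mRNA.

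Near-identical copies limit what a level of a single gene means. Each gene was cut into all words of 31 bases, and words found in any other annotated gene on either strand were counted as shared. The median gene had 39.8% of its words to itself, from 22.9% in H2A to 96.2% in H1. Only 32 distinct proteins are encoded by the 67 genes: 1 for H4, 3 for H3, 9 for H2A, 13 for H2B and 6 for H1. Hist2h2aa2, the highest gene, had no word of its own. It shares a run of 528 bases with Hist2h2aa1 at 0.65 ± 0.330 TPM, and all of its words also occur in the noncoding transcript Gm20634, read in the same sense. Hist2h2aa1 and Hist2h2aa2 together had 13.3, 8.19 and 8.02 TPM, and how that sum divides between them cannot be told from the sequence. The deposited credible interval of Hist2h2aa1 in replicate 1 ran up to 5.57 TPM, against a value of 0.86. Hist1h4m and Hist1h4n, with 8.33% and 12.5% of words unique, share a run of 366 bases and together had 6.06, 12.5 and 8.13 TPM.

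Genes with at least 50% of their words to themselves numbered 26. They summed to 23.4 ± 2.53 TPM on 418 ± 69.9 counts, and 4 of them were detected: Hist3h2a, Hist1h4i, Hist1h4c and Hist1h2ae. The other 41 summed to 41.4 ± 7.73 TPM on 174 ± 26.3 counts, with 7 detected. Most of the family's TPM was therefore assigned to genes whose reads could also belong to a copy, while most of its counts fell on genes with distinct sequence.

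**Figure D4:**
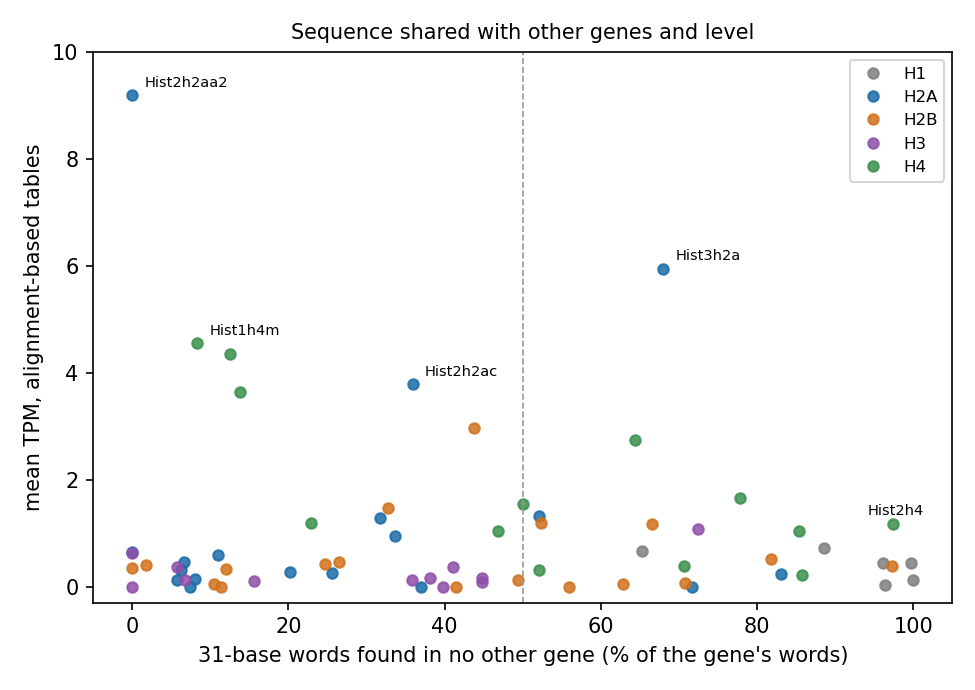
Share of each histone gene's 31-base words that occur in no other annotated gene (horizontal, %) against its mean TPM over 3 libraries (vertical), coloured by histone type, with a dashed line at 50%. Hist2h2aa2 at 0% and Hist3h2a at 67.9% are the highest points on either side.

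Overlapping genes add a further limit, because the sources used here do not tell whether the counting used strand. Apart from annotated miRNAs, another gene overlaps 11 of the 67, and on the opposite strand 6 of them. Hist3h2a starts at the same base as Trim17, a ubiquitin ligase gene on the same strand, and 32.1% of its words also occur in Trim17 transcripts, which drew 62, 106 and 69 counts. Hist2h2aa2 lies opposite Gm20632, at 38.8, 26.4 and 44.4 counts. Hist2h3c1, at 0 counts, lies wholly within words of Gm20634, to which 49.3, 50.3 and 53.5 counts were assigned. The levels of Hist3h2a, Hist2h2aa2 and Hist2h3c1 are uncertain in this respect. No such gene overlaps Hist2h2ac, Hist1h2bg or Hist1h4i. Words of these genes still occur on the opposite strand of other genes, 62.7% of them for Hist2h2ac, 1.19% for Hist1h2bg and 14.1% for Hist1h4i.

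The read-based tables, made from the reads without a genome alignment, gave a like total with a partly different make-up. The 67 genes summed to 58.5, 64.4 and 53.5 TPM there (58.8 ± 5.44), and 13 were detected, against 49.9% of protein-coding genes. H2A held 20.6 ± 2.93, H4 19.0 ± 3.77, H2B 13.8 ± 1.94, H1 2.85 ± 0.585 and H3 2.57 ± 0.653 TPM, so H2A and H4 again led and H1 and H3 were again lowest. Of the 26 genes with a mean of at least 1 TPM in either table, 5 (19.2%) were at least 2 times higher in the read-based one, against 34.6% of protein-coding genes, and the median ratio was 0.897, against 1.43. None of the 26 was at most 0.5 times the alignment-based level, against 0.174% of protein-coding genes.

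Among these 26 genes the largest ratios belonged to 1 H4 and 4 H2B genes. Hist4h4, the lone H4 gene of chromosome 6, had 1.43 ± 0.279 TPM read-based and 0.217 ± 0.0231 TPM alignment-based, a ratio of 6.61. Ratios were 3.42 for Hist1h2bq, 3.10 for Hist2h2be, 2.47 for Hist1h2be and 2.21 for Hist1h2bf. Hist1h2bq shares the whole of its 1254-base protein-coding transcript with Hist1h2br, and most of its read-based level, 1.32 TPM, lay on a transcript annotated for nonsense-mediated decay. The smallest ratios among the 26 were 0.544 for Hist1h4f, 0.588 for Hist1h4m, 0.615 for Hist2h2aa2, 0.616 for Hist1h4b and 0.672 for Hist1h4n, 4 of the 5 being H4 genes. Hist1h1d had a mean under 1 TPM in both, with 1.28 TPM read-based in replicate 1, but drew 162.7, 150.9 and 157.7 read-based counts and only 3, 2 and 1 in the alignment-based tables.

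**Figure D5:**
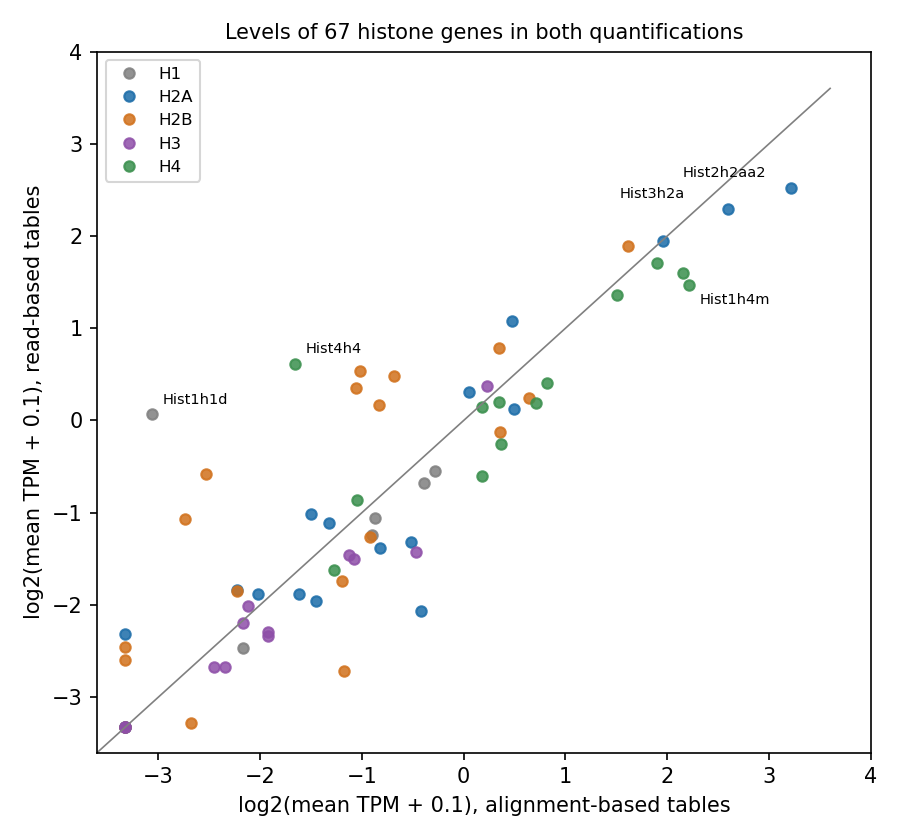
Mean level of each of the 67 histone genes as log2(mean TPM + 0.1) in the alignment-based (horizontal) and read-based tables (vertical), coloured by type, with the line of equal levels. Hist1h1d and Hist4h4 lie far above the line, and Hist2h2aa2 and Hist1h4m lie below it.

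The replication-independent histone genes had a higher summed level than the clustered ones, by a margin that depended on the transcripts counted. The 67 clustered genes summed to 64.8 TPM on average, against 274 ± 34.7 TPM for 12 replication-independent genes. The log2 ratio was -2.21, -1.70 and -2.33 in replicates 1, 2 and 3 (-2.08 ± 0.33), lower in 3 of 3 libraries, with p = 0.25 in the exact sign-flip permutation test, again the smallest possible. H3f3b, which encodes the replacement histone H3.3, had 148.4, 120.7 and 195.9 TPM, and H2afy, which encodes macroH2A, had 69.01, 75.8 and 76.5 TPM. H3f3a, the second H3.3 gene, had 28.58, 27.82 and 19.42 TPM, more by itself than all 12 clustered H3 genes together. Transcripts annotated as protein coding held 98.2 of the 155 TPM of H3f3b, 16.9 of the 73.8 TPM of H2afy and 7.82 of the 25.3 TPM of H3f3a, the rest lying on transcripts of other biotypes. With protein-coding transcripts alone the log2 ratio was -1.08, and with all 67 genes kept it ranged down to -3.21, on CPM. It was -3.55 for the 26 clustered genes with at least 50% unique words. That setting sets a part of the clustered genes against all 12 others, which can only lower the ratio. Of the 12 genes 6 were detected, and H1fx was listed at 0 counts in every library.

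Most genes listed for making and handling histone mRNA were detected, general mRNA factors such as Nxf1 among them. Of 35 genes for 3′ end processing, export and decay, 27 were detected (77.1%, against 39.4% of protein-coding genes). Slbp, whose protein binds the stem-loops printed above, had 8.72, 12.14 and 13.02 TPM, and Eri1, a 3′ exonuclease that trims the histone mRNA end, had 12.3 ± 0.355 TPM. The highest of the list were the mRNA export receptor gene Nxf1 (214 ± 25.9 TPM), the terminal uridylyltransferase gene Tut7 (178 ± 13.0 TPM) and Srrt (125 ± 13.6 TPM). Of the proteins particular to the U7 particle, Lsm10 had 3.49 ± 0.439 TPM and Lsm11 0.220 ± 0.115 TPM. The U7 RNA gene Rnu7 was listed at 0 counts. No 3-count level could be given for it, so these counts do not tell whether U7 RNA was present. Npat, the coactivator of histone gene transcription, had 1.55 ± 0.745 TPM. Histone chaperone and assembly genes were detected in 17 of 20 cases (85%, against the same 39.4%). At alignment-based levels they were led by Atrx (213 ± 49.4 TPM), Daxx (113 ± 42.4 TPM) and Ubn1 (46.2 ± 2.10 TPM), which serve H3.3 deposition. Nap1l4, at 39.9 ± 12.3 TPM there, had 195 ± 72.5 TPM read-based. That was below Atrx (234 ± 16.5 TPM) but above Daxx (117 ± 57.6 TPM) and Ubn1 (71.1 ± 5.23 TPM). Asf1b was lowest at 0.217 ± 0.215 TPM, while its relative Asf1a had 16.5 ± 2.72 TPM.

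At alignment-based levels, genes of S phase, in which the clustered histones are made, were detected about as often as protein-coding genes at large. Of 28 S phase genes 13 were detected (46.4%, against 39.4% of protein-coding genes), and the median level was 1.73 TPM, against 0.373 TPM. They were led by Pcna, the sliding clamp of DNA polymerases (17.7 ± 3.82 TPM), Pola1 (10.3 ± 2.86 TPM) and Cdk2 (5.76 ± 2.55 TPM), with Fen1 lowest at 0.143 ± 0.176 TPM. Their sum was 59.4, 86.4 and 68.8 TPM in replicates 1, 2 and 3, close in size to the sum of the 67 histone genes in each library. The likeness was not seen in the read-based tables, where the S phase genes summed to 124 ± 23.3 TPM. There 19 of the 28 were detected, more often than protein-coding genes at large (49.9%). Of 20 mitosis genes 5 were detected (25%, against 39.4%), and 12 of 20 in the read-based tables, against 49.9%. Top2a (4.59 ± 2.23 TPM) and Tpx2 (2.76 ± 2.00 TPM) followed Mki67, the gene of the proliferation antigen Ki-67, which stood apart at 116 ± 36.3 TPM. Cdc20 was lowest at 0.0667 ± 0.115 TPM.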

How the data were processed

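Total RNA-seq of the chromatin fraction was read from the tables deposited for 3 libraries. The build was mm10 with GENCODE M21 annotation, per the file headers and accompanying text. The sources used here do not give the aligner, the counting program or the use of strand. The authors deposited expected counts (estimated, not whole), TPM and posterior mean TPM with credible intervals (bounds treated as a score, level not given) from transcriptome alignments, and estimated counts with TPM from reads and an index. Spike-in and tRNA rows, 1.25%, 0.206% and 0.261% of counts in replicates 1, 2 and 3, were left out of library sizes but are part of the deposited TPM scale.

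Levels were computed in Python 3.11.15 with pandas 2.3.3, NumPy 2.4.6 and SciPy 1.17.1, and tested on simulated data. Members and gene lists were chosen with earlier results of these data known. Every gene with a mean TPM of at least 1 was named, the highest 3 and the lowest of each gene list, and the 5 largest and 5 smallest ratios between tables; other names were chosen after their values were seen. Levels were compared within libraries by an exact two-sided sign-flip permutation test. A chi-square per degree of freedom of 46.5 to 125 between libraries showed no repeat deposit. Alternatives were the read-based tables, CPM, posterior means, protein-coding transcripts alone, other thresholds and gene sets, and leaving out each library. Sequences came from GENCODE M21 transcripts and RefSeq promoters (GRCm38.p6).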

Additional observations from a re-analysis of the deposited data

How the results depend on the processing

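Counting detected genes gave 11 of 67; the count was 3 at 1 CPM, 21, 6 and 1 at TPM thresholds of 0.5, 2 and 5, 20 for a mean of 1 TPM or more, and 4 among the 26 genes with at least 50% unique words, a choice made after seeing the data. The summed level of 64.8 TPM became 34.3 on CPM, 52.3 for the 20 genes whose mean reached 1 TPM and 23.4 for the 26 genes with unique words. The median of 0.383 became 0.124 on CPM, 0.61 by posterior mean TPM and 1.5 for the 20 genes. Hist1 over Hist2 to Hist4, 0.80 on the log2 scale, was -0.11 on CPM, which are not divided by model length (p = 1 in the exact sign-flip permutation test; 0.12 without replicate 1), and kept its direction in the other 8 settings. The ratio to replication-independent histones stayed negative in all 9 settings run, from -3.55 with unique words to -1.08 with protein-coding transcripts alone. The settings with unique words and with a mean of 1 TPM or more (-2.39) left out clustered genes only. They could only lower the ratio and say nothing on its direction. With all 67 genes kept the lowest was -3.21, on CPM.

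Leaving out each library in turn gave 12 to 14 detected genes, sums of 59.3 to 69.0 TPM, medians of 0.35 to 0.515, log2 ratios of 0.63 to 1.08 for Hist1 and -2.27 to -1.95 for the replication-independent genes. Of the 20 named genes, 14 stayed within 1 SD in the read-based tables and all 20 by posterior mean. Leaving out a library moved 5 of the 20 by over 1.5 times, each most without replicate 2: Hist1h4f to 0.40 TPM, Hist1h4n to 2.58, Hist1h4k to 2.35, Hist1h2ad to 0.835 and Hist1h3d to 0.705. Pseudocounts of 0.1 and 0.01 left the median as it was. No paired analysis was possible because there was 1 group; the sign-flip tests set gene sets against each other within each library. Few counts per gene and shared sequence limit single genes more than sums.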
